A study of Mus musculus with 10 samples.

Results

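The extracellular matrix and basement membrane genes were examined in the lactating mammary gland as a set of 43 genes, chosen by name as the collagens, laminins, proteoglycans, glycoproteins and matrix enzymes of the gland's stroma. Affymetrix probesets that the platform annotation gives to a single gene symbol covered 42 of them, out of 12393 genes covered in all. Fbn1 is not analysed here. Glands of 5 QSi5 mice and 5 CBA mice were compared at day 9 of lactation, with 1 array for each mouse. QSi5 is an inbred strain derived from outbred Quackenbush-Swiss mice under selection for large litters and a short interval between litters, and CBA (CBA/CaH) is an inbred strain without that selection. All 10 mice were untreated females in their first lactation, each mated within its own strain, and total RNA came from a snap-frozen inguinal gland, which the series record describes as taken after forced weaning on day 9. The methods give 8 weeks as the age at mating of breeding females, and the profiled females were mated in the same way.

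Alveoli and ducts of the gland rest on a basement membrane, a sheet in which laminin trimers and type IV collagen form separate networks joined by nidogen and perlecan. Outside it lies a stroma of fibrillar collagens, whose fibrils are bound by small proteoglycans such as decorin and lumican, together with fibronectin and elastic fibres. Contact of secretory epithelium with laminin is known to be needed for milk gene expression in cultured mouse mammary cells. Matricellular proteins such as tenascin C and periostin are deposited in the matrix and act on cells rather than as scaffolds. Fibroblasts make much of the stromal matrix, whereas laminins and type IV collagen also come from epithelial, myoepithelial and endothelial cells.

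Promoter sequence was available for 29 of the 43 genes, with 36 windows that run from 250 bases before to 50 after an annotated start (RefSeq, GRCm38.p6). TATANA, the core of a TATA box, was searched on the sense strand from 45 to 16 bases before the start. It was found in 2 of the 36 windows (5.56%), a window each of Tnc and Postn, and in 3.4% of all 32851 windows. GGGCGG, a GC box, was searched on both strands in the 250 bases before the start. It was present in 20 of the 36 windows (55.6%), against 32.7% of all windows, and some genes supply more than 1 of these windows. CCAAT, searched in the same way, was present in 8 of the 36 windows (22.2%) and in 33.8% of all. Tnc is printed because it is the gene that differed between the strains, Postn as the other matricellular gene with TATANA, Col3a1 as a fibrillar collagen that varied widely between mice, and Hspg2 as a basement membrane gene with GC boxes. Each sequence is on the gene's own strand, and capitals mark TATANA (2 overlapping matches in Postn) or GGGCGG. A match is a description of these letters only.
Tnc, 100 bases before its start, chr4:64047016-64047115, minus strand: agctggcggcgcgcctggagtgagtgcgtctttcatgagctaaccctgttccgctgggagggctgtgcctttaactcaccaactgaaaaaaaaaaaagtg
Tnc, bases 45 to 16 before its other start, chr4:64046952-64046981, minus strand: agaggaaggagctcccTATATAagcctgcc
Postn, bases 45 to 16 before its start that has the motif, chr3:54361062-54361091, plus strand: ctcccacagcccagagcTATATAAActcag
Col3a1, 100 bases before its start, chr1:45311438-45311537, plus strand: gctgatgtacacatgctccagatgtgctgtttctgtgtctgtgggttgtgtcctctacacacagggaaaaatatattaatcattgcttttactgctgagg
Hspg2, 100 bases before its start, chr4:137468703-137468802, plus strand: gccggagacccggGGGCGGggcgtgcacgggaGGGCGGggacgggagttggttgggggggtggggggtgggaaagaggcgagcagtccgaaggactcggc

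The values are RMA log2 levels deposited by the authors, who normalized the arrays of 2 chip types together. The larger chip, MOE430 2.0, served 3 mice of each strain and MOE430A 2.0 the other 2. The CBA mouse of replicate 3 stood apart from the rest. Its median correlation with the other CBA arrays was 0.972, whereas the other 9 arrays had 0.981 to 0.988 with their own strain. The difference between the 3′ and 5′ probesets of the Gapdh control, which grows as RNA is degraded or copied incompletely, was 3.28 log2 units on this array, 1.52 to 1.84 in the QSi5 mice and 1.11 to 2.28 in the other CBA mice. The QSi5 mouse of replicate 4 stood apart in leukocyte genes. Ptprc, the common leukocyte antigen CD45, read 8.10 there and 4.13 to 4.83 in the other QSi5 mice, and the lymphocyte gene Cd52 read 8.67, against 4.85 to 5.46. The set's counts and Tnc are given with and without each of these mice, and other differences are given without the CBA mouse of replicate 3 where its removal moved them by over 1.5 times. The label of lactating gland was borne out by its defining markers: all 10 secretory epithelial markers passed the intensity minimum, and the milk protein gene Lalba read 13.42 to 13.77 in QSi5 mice and 12.96 to 13.33 in CBA mice.

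Strain differences of the matrix genes were near the background of all genes in number and in size. Low signals were set aside by an intensity minimum. Probesets were kept where the mean log2 level, put back on the unlogged scale, was over 20 in QSi5 mice, CBA mice or both. This held for 34 of the 42 genes. Each gene is represented by its brightest tested probeset, and a gene is called at a limma p below 0.05 after Benjamini-Hochberg adjustment over all 11412 tested probesets. By this rule 2.7% of all 7361 tested genes were called. Of the 34 matrix genes, 0 were higher in QSi5 mice, 1 was lower, Tnc, and 33 were not called. Among their 49 tested probesets 1 was called, against 2.94% of all probesets. At an unadjusted p below 0.05 there were 5 genes, against 14.9% of all genes, and of these 2 were higher (6.89% of all genes) and 3 lower in QSi5 mice (8.03%). Levels separated the strains without overlap for Tnc and Fbln5, 2 of the 34, against 5.14% of all genes. Fbln5, also among the 3 lower genes, passed the intensity minimum only through CBA mice, where it was higher, so its place in both counts is tied to its difference. The median QSi5 minus CBA difference of the 34 genes was 0.08 on the log2 scale, against 0.00 for all genes, and the median size of the difference was 0.14, against 0.13. Of the 34 differences 22 were above 0 and 12 below. That balance rested on single mice: without the CBA mouse of replicate 3, 16 were above 0 and the median was -0.04, and without the QSi5 mouse of replicate 4, 24 were above 0 and the median was 0.13. The difference was smaller than 0.25 in 29 of the 34. The 95% intervals of the 33 uncalled genes ran from -0.98 to 0.94, so that at this number of arrays differences of up to nearly 1 log2 unit remain possible for single genes. In RNA of a whole gland, fewer cells of a type and less RNA per cell cannot be told apart.

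**Figure D1:**
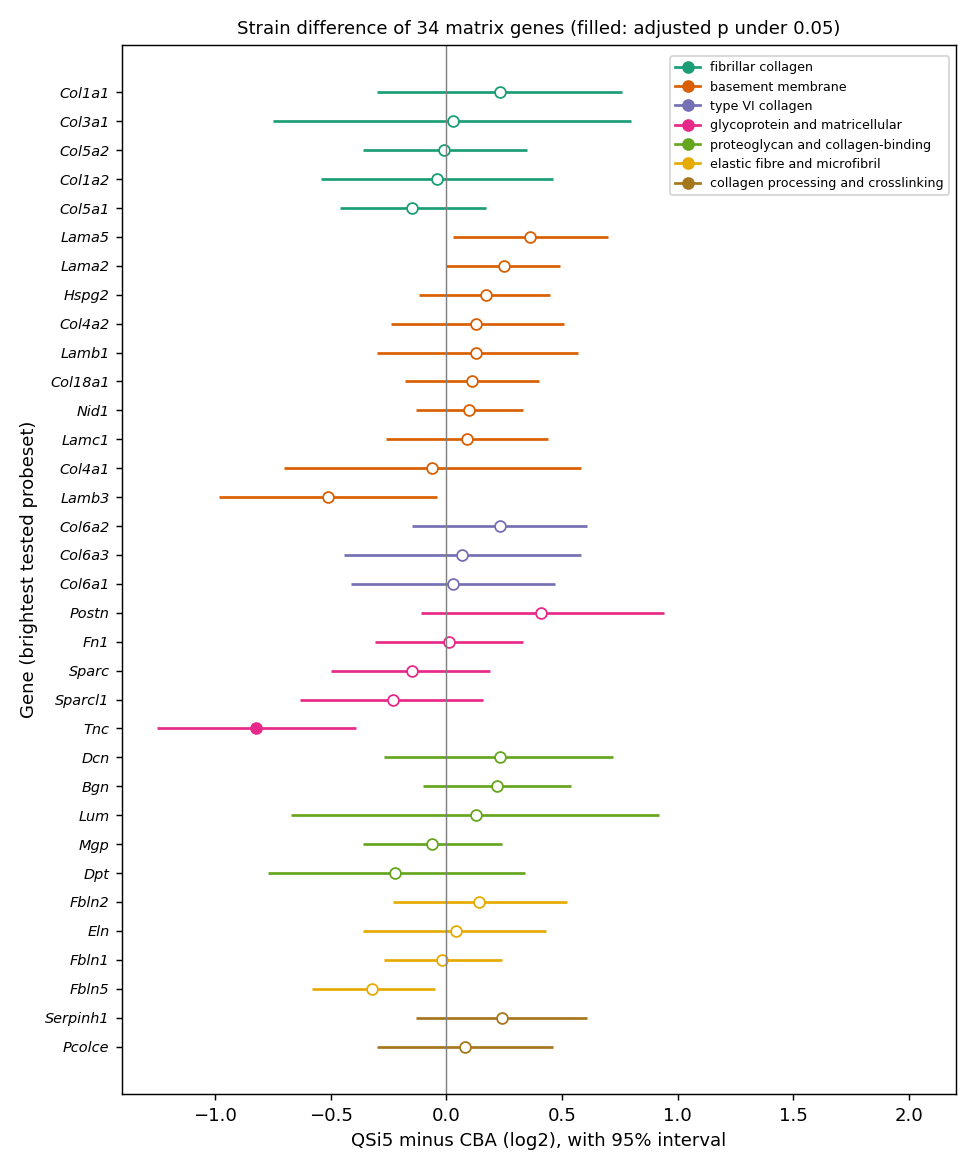
QSi5 minus CBA difference (log2) of the 34 tested matrix genes by role, each on its brightest probeset, with limma's 95% interval and a filled point for an adjusted p under 0.05. Tnc, at -0.82, is the filled point, and the unadjusted intervals of Lama5, Lama2, Lamb3 and Fbln5 also leave out 0. Fbln5 passed the intensity minimum through the CBA mean alone.

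Tnc, which encodes the matricellular glycoprotein tenascin C, was lower in QSi5 glands. Its log2 levels on probeset 1416342_at were 6.83, 6.61, 6.40, 6.12 and 6.56 in QSi5 mice, against 7.93, 7.28, 7.51, 6.93 and 6.93 in CBA mice. The highest QSi5 mouse lay just below the 2 lowest CBA mice, and the CBA mouse of replicate 1 stood highest. The QSi5 minus CBA difference was -0.82 ± 0.20 (SE, n = 5 each), or 1.76-fold lower, with a 95% interval of -1.25 to -0.39 and an adjusted p of 0.0483 in limma. The direction was the same on both chip types, at -0.91 within MOE430 2.0 and -0.68 within MOE430A 2.0. The call lies close to the threshold. Without the CBA mouse of replicate 3 the difference was -0.77 with an adjusted p of 0.0999, and without that of replicate 1 it was -0.66 with an adjusted p of 0.0778. Without the QSi5 mouse of replicate 4 it was -0.72 with an adjusted p of 0.112. Of 23 alternative settings 11 kept the call, and the adjusted p ranged from 0.0252 to 0.316.

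**Figure D2:**
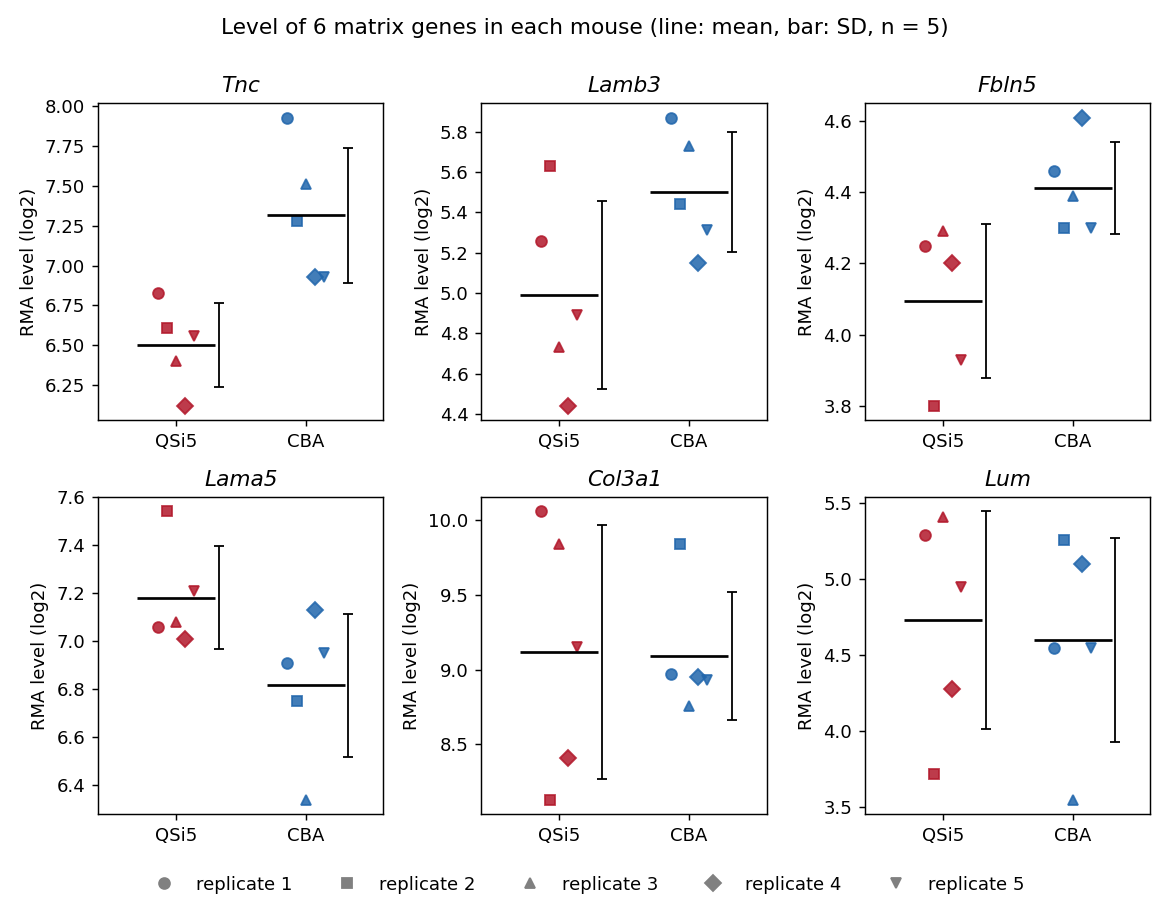
RMA level (log2) of 6 matrix genes in each QSi5 and CBA mouse, with a symbol for each replicate number, a line for the strain mean and a bar for the SD (n = 5 each). The strains do not overlap for Tnc and Fbln5, of which Fbln5 passed the intensity minimum through the CBA mean alone. The strain means of Col3a1 and Lum differ by 0.03 and 0.13. For Lamb3, Lama5, Col3a1 and Lum the mice of each strain spread over more than the gap between the 2 strain means. For Tnc this holds in CBA mice, while the QSi5 mice spread over less than the gap. For Fbln5 it holds in QSi5 mice, while the CBA mice spread over about as much as the gap. Each panel has its own axis, which does not start at 0.

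Basement membrane genes numbered 14, of which 10 were tested and 0 called. Their differences ran from -0.51 to 0.36, and 8 of the 10 were above 0. Lamb3, the beta chain of laminin-332 under epithelial cells, had the biggest difference of the group. It read 5.26, 5.63, 4.73, 4.44 and 4.89 in QSi5 mice, against 5.87, 5.44, 5.73, 5.15 and 5.31 in CBA mice. The QSi5 mice of replicates 1 and 2 lay within the range of the CBA mice, and the other 3 lay below it. The difference was -0.51 ± 0.22 (SE), with a limma adjusted p of 0.282. It was -0.76 on MOE430 2.0 and -0.14 on MOE430A 2.0, -0.45 without the CBA mouse of replicate 3 and -0.37 without the QSi5 mouse of replicate 4. Lama5, the alpha chain of the laminins widespread in adult epithelial basement membranes, pointed the other way. Its levels were 7.06, 7.54, 7.08, 7.01 and 7.21 in QSi5 mice, against 6.91, 6.75, 6.34, 7.13 and 6.95 in CBA mice. The ranges overlapped through the CBA mouse of replicate 4, and the CBA mouse of replicate 3 was the lowest of all. The difference was 0.36 ± 0.15 (SE; adjusted p = 0.287 in limma), and without that mouse it was 0.24. It was 0.10 on MOE430 2.0 and 0.75 on MOE430A 2.0. A dimmer Lama5 probeset gave 0.15. Lama2, the alpha chain of the laminins of muscle and nerve, had 5.31, 5.10, 5.43, 5.0 and 5.18 in QSi5 mice and 5.07, 5.07, 4.71, 4.97 and 4.97 in CBA mice, with a difference of 0.25 and a limma adjusted p of 0.325. Without the CBA mouse of replicate 3 it was 0.19.

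The remaining basement membrane genes showed smaller differences. Col4a1, a main chain of type IV collagen, had 6.72, 6.19, 6.25, 5.85 and 6.02 in QSi5 mice, against 6.33, 7.48, 5.77, 5.87 and 5.89 in CBA mice. The strains overlapped throughout, with the highest and the lowest values both in CBA mice, and the difference was -0.06 with an interval of -0.70 to 0.58. Its partner chain Col4a2, which lies head to head with Col4a1, gave 0.13, and Col18a1, the source of endostatin, gave 0.11. Hspg2, the heparan sulfate proteoglycan perlecan shown above with its GC boxes, gave 0.17, and its 2 probesets had 0.17 and 0.02. The laminin chains Lamb1 and Lamc1, which belong to most laminins of this tissue, had differences of 0.13 and 0.09. Nid1, which links laminin to type IV collagen, gave 0.10 on its brightest probeset and -0.44 on the other tested one, with overlapping strains on both, and -0.17 on the mean of the 2. Without the CBA mouse of replicate 3 the differences were -0.19 for Col4a1, 0.04 for Col4a2, 0.02 for Col18a1, 0.05 for Lamc1 and 0.05 for Nid1. Limma's adjusted p was 0.457 or more for every probeset named in this paragraph with all 10 mice.

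The 5 fibrillar collagens of the set were all tested, and 0 were called, with differences of -0.15 to 0.23. Col1a1, which encodes the main chain of type I collagen, read 5.80, 5.03, 5.54, 4.89 and 5.10 in QSi5 mice, against 5.01, 5.57, 4.23, 5.19 and 5.20 in CBA mice. Both strains spanned much of the same range, and the lowest mouse was the CBA mouse of replicate 3. The difference was 0.23 with an interval of -0.30 to 0.76, and a dimmer Col1a1 probeset gave -0.22. Without that mouse the difference was 0.03, and the chip types gave 0.04 (MOE430 2.0) and 0.51 (MOE430A 2.0). Col5a2, a type V collagen chain that helps to set fibril diameter, had 5.19, 4.53, 5.17, 4.39 and 4.68 in QSi5 mice and 4.88, 4.89, 4.61, 4.92 and 4.68 in CBA mice. The QSi5 mice reached both above and below all CBA mice, and the difference was -0.01 (interval -0.36 to 0.35). Col3a1, the type III collagen of loose stroma, had 10.06, 8.13, 9.84, 8.41 and 9.15 in QSi5 mice, against 8.97, 9.84, 8.76, 8.95 and 8.93 in CBA mice. The gap between the highest and the lowest mouse was 1.93 log2 units, or 3.81-fold, while the strain difference was 0.03 (interval -0.75 to 0.80). Col1a2 and Col5a1 gave -0.04 and -0.15. Col5a2 gave -0.05, Col3a1 -0.05 and Col1a2 -0.14 when the CBA mouse of replicate 3 was left out.

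Type VI collagen, a beaded filament network around cells, was measured by the 3 of its genes in the set, and 0 were called. Col6a2 had 7.74, 7.43, 7.75, 7.25 and 7.39 in QSi5 mice, against 7.01, 7.82, 6.91, 7.43 and 7.25 in CBA mice. Both strains overlapped, with the 2 lowest mice and the highest one in CBA, and the difference was 0.23 (interval -0.15 to 0.61). Col6a1 read 5.98, 5.27, 6.12, 5.55 and 5.65 in QSi5 mice and 5.72, 6.03, 5.05, 5.94 and 5.67 in CBA mice. Its strains covered nearly the same range, with a difference of 0.03, and Col6a3 gave 0.07. Without the CBA mouse of replicate 3, the lowest for Col6a1 and Col6a2, the differences were 0.14 for Col6a2, -0.12 for Col6a1 and -0.03 for Col6a3.

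Proteoglycans and other collagen-binding proteins had 5 tested genes of 6, none of them called (0 of 5). Dcn, which encodes decorin, read 7.22, 6.25, 7.32, 6.73 and 6.85 in QSi5 mice, against 6.69, 7.31, 6.24, 6.54 and 6.46 in CBA mice. The lowest and the highest mouse of each strain were nearly level with those of the other, and the difference was 0.23 (interval -0.27 to 0.72). Lum, which encodes lumican, varied more. It had 5.29, 3.72, 5.41, 4.28 and 4.95 in QSi5 mice, against 4.55, 5.26, 3.55, 5.10 and 4.55 in CBA mice. Each strain had mice near the top and near the bottom of a range of 1.86 log2 units (3.62-fold), around a difference of 0.13. Bgn, which encodes biglycan, gave 0.22, 0.02 and -0.13 on its 3 probesets, the brightest first. Mgp, an inhibitor of calcification bound to the matrix, read 4.55, 4.43, 4.51, 4.14 and 4.08 in QSi5 mice, against 4.12, 4.55, 4.20, 4.58 and 4.57 in CBA mice, with a difference of -0.06. Dpt, the collagen-binding protein dermatopontin, gave -0.22. Its levels were 5.72, 4.82, 5.78, 5.26 and 5.21 in QSi5 mice and 4.70, 5.59, 6.17, 5.65 and 5.75 in CBA mice. Here the CBA mouse of replicate 3, in which most matrix genes were low, was the highest of the 10. Without it the differences were 0.12 for Dcn, -0.14 for Lum, 0.11 for Bgn on its brightest probeset, -0.11 for Mgp and -0.07 for Dpt.

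Among glycoproteins and matricellular genes, 5 of 6 were tested and Tnc alone was called. Fn1, which encodes fibronectin, read 5.14, 4.91, 5.21, 5.19 and 4.78 in QSi5 mice, against 4.95, 5.08, 4.66, 5.05 and 5.45 in CBA mice. The strains overlapped, and the difference was 0.01 (interval -0.31 to 0.33). Postn, which encodes periostin, had 8.07, 7.91, 7.90, 6.84 and 7.54 in QSi5 mice, against 7.58, 7.68, 6.78, 7.19 and 6.94 in CBA mice. The 3 highest mice were QSi5 and the lowest was the CBA mouse of replicate 3. The difference was 0.41 ± 0.24 (SE; adjusted p = 0.472 in limma), 0.30 without that mouse and 0.62 without the QSi5 mouse of replicate 4, the lowest of its strain. It was 0.19 on MOE430 2.0 and 0.76 on MOE430A 2.0. Sparc, a collagen-binding calcium protein, and its relative Sparcl1 gave -0.15 and -0.23. Leaving out the CBA mouse of replicate 3 gave -0.08 for Fn1 and -0.25 for Sparc.

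Elastic fibre and microfibril genes had 4 tested members of 5, with 0 called. Fbln5, which links elastin to cells, read 4.25, 3.80, 4.29, 4.20 and 3.93 in QSi5 mice, against 4.46, 4.30, 4.39, 4.61 and 4.30 in CBA mice. All QSi5 mice lay below all CBA mice, the closest pair by a narrow margin. The difference was -0.32 ± 0.12 (SE; adjusted p = 0.232 in limma), and it was -0.32 and -0.31 on the 2 chip types. Fbln5 passed the intensity minimum through the CBA mean alone, the one matrix gene to pass through a single strain, so its place among the tested genes is tied to that difference. Fbln1 had 4.20, 4.54, 4.54, 4.78 and 4.51 in QSi5 mice and 4.55, 4.63, 4.39, 4.42 and 4.68 in CBA mice. QSi5 mice held both the highest and the lowest value, and the difference was -0.02. Fbln2 gave 0.14, and Eln, elastin itself, gave 0.04. These values were -0.05 for Fbln1, 0.01 for Fbln2 and -0.07 for Eln when the CBA mouse of replicate 3 was left out.

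Genes for collagen processing and crosslinking had 2 tested members of 4, with 0 called. Serpinh1, the chaperone of procollagen in the endoplasmic reticulum, read 7.11, 6.79, 6.96, 6.50 and 6.94 in QSi5 mice, against 6.54, 7.20, 6.36, 6.37 and 6.65 in CBA mice. The strains overlapped, with the CBA mouse of replicate 2 the highest and that of replicate 3 the lowest, and the difference was 0.24 (interval -0.13 to 0.61). Pcolce, which enhances removal of the procollagen C-propeptide, had 6.38, 5.83, 6.24, 5.95 and 5.77 in QSi5 mice and 5.73, 6.49, 5.95, 5.59 and 6.0 in CBA mice. Its highest and lowest mice were both CBA, and the difference was 0.08 (interval -0.30 to 0.46).

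The other 8 genes stayed below the intensity minimum on all their probesets, and so were not tested. They were Col15a1, Lama4, Lamb2 and Nid2 of the basement membrane, the proteoglycan Vcan, the crosslinking enzymes Lox and Loxl1, and the matricellular gene Thbs1. Thbs1, which encodes thrombospondin 1, had a single high value. On probeset 1460302_at it read 2.76, 2.99, 3.04, 3.12 and 2.89 in QSi5 mice, against 5.37, 3.28, 2.71, 2.86 and 3.05 in CBA mice. The CBA mouse of replicate 1, which also had the highest Tnc, stood above the other 9. On the other Thbs1 probeset that mouse read 3.30 and the rest 2.39 to 3.05.

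Matrix genes varied more between mice of the same strain than most genes did. The median SD within a strain was 0.30 log2 units over the 34 genes, against 0.22 over all 7361 tested genes. It was above that all-gene median in 28 of the 34 (82.4%). It exceeded the all-gene 90th percentile of 0.40 in 9 of them (26.5%). These were Lum at 0.69, Col3a1 at 0.67, Col4a1 at 0.55, Dpt at 0.47, Postn at 0.45, Col1a1 at 0.44, Col6a3 at 0.43, and Dcn and Col1a2 at 0.42 each. At the other end, Nid1 had 0.14, Lama2 0.16, Fbln1 0.17 and Fbln5 0.18. Of the 9, 3 encode fibrillar collagens and 3 collagen-binding proteins, while the elastic fibre genes had SDs of 0.17 to 0.32. Without the CBA mouse of replicate 3, 27 genes were above the all-gene median and 10 above its 90th percentile. Without that of replicate 2 the counts were 26 and 7, without the QSi5 mouse of replicate 4 they were 29 and 8, and with chip type in the fit they were 30 and 10.

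**Figure D3:**
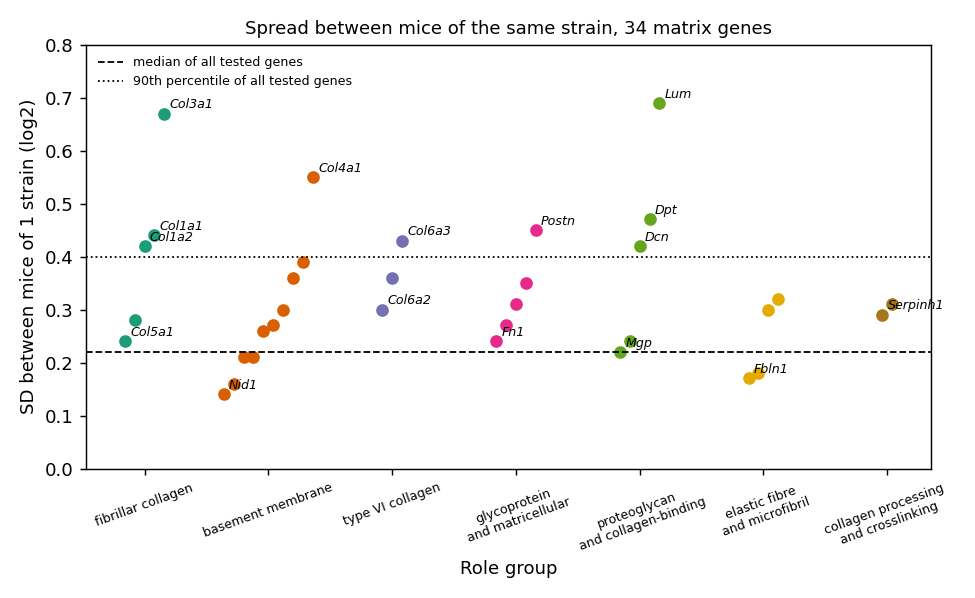
SD between mice of the same strain (log2, pooled over QSi5 and CBA by the fit) of the 34 tested matrix genes by role, with lines at the median (0.22) and the 90th percentile (0.40) of all 7361 tested genes. Of the 34 points, 28 lie above the median line and 9 above the 90th percentile.

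The same mice were high or low in many matrix genes at once. As a deviation from the mean of the 10 arrays, the median of the 34 genes was 0.29, -0.13, 0.21, -0.21 and -0.07 log2 units in QSi5 mice of replicates 1 to 5. It was -0.05, 0.22, -0.38, 0.01 and 0.00 in CBA mice of replicates 1 to 5. The QSi5 mice of replicates 1 and 3 and the CBA mouse of replicate 2 were therefore high in matrix genes, and the QSi5 mouse of replicate 4 and the CBA mouse of replicate 3 were low. Over all tested genes the medians lay between -0.03 and 0.02. Fibrillar collagens took the same course with a wider range, at 0.42, -0.39, 0.39, -0.40 and -0.12 in QSi5 mice and -0.01, 0.42, -0.35, 0.03 and 0.04 in CBA mice. High and low mice were found on both chip types. Basement membrane genes differed from this in the QSi5 mouse of replicate 2, where their median was 0.18 and that of fibrillar collagens -0.39. These genes share their arrays, so that the medians describe 10 mice and not 34 separate measurements.

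Counts of genes picked out the same 5 high and low mice, and by count the QSi5 mouse of replicate 5 was low as well. The QSi5 mouse of replicate 1 was above the mean of its strain in 29 of the 34 genes (54.3% of all genes), and that of replicate 3 in 27 (50.9%). The counts were 5 for that of replicate 4 (46.5%), 9 for that of replicate 5 (57.8%) and 12 for that of replicate 2 (44.5%). The CBA mouse of replicate 2 was above its strain mean in 30 (44.6%) and that of replicate 3 in 4 (49.3%), while the other 3 CBA mice were so in 17 to 19. The CBA mouse of replicate 3 was the lowest of its strain in 24 of the 34 genes (70.6%), against 27.6% of all genes. That of replicate 2 was the highest in 18 (52.9%), against 13.4%. The 4 genes in which the CBA mouse of replicate 3 was above its strain mean were Tnc, Lamb3, Sparcl1 and Dpt, and there they were 0.42 to 0.71 above their 10-array means.

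**Figure D4:**
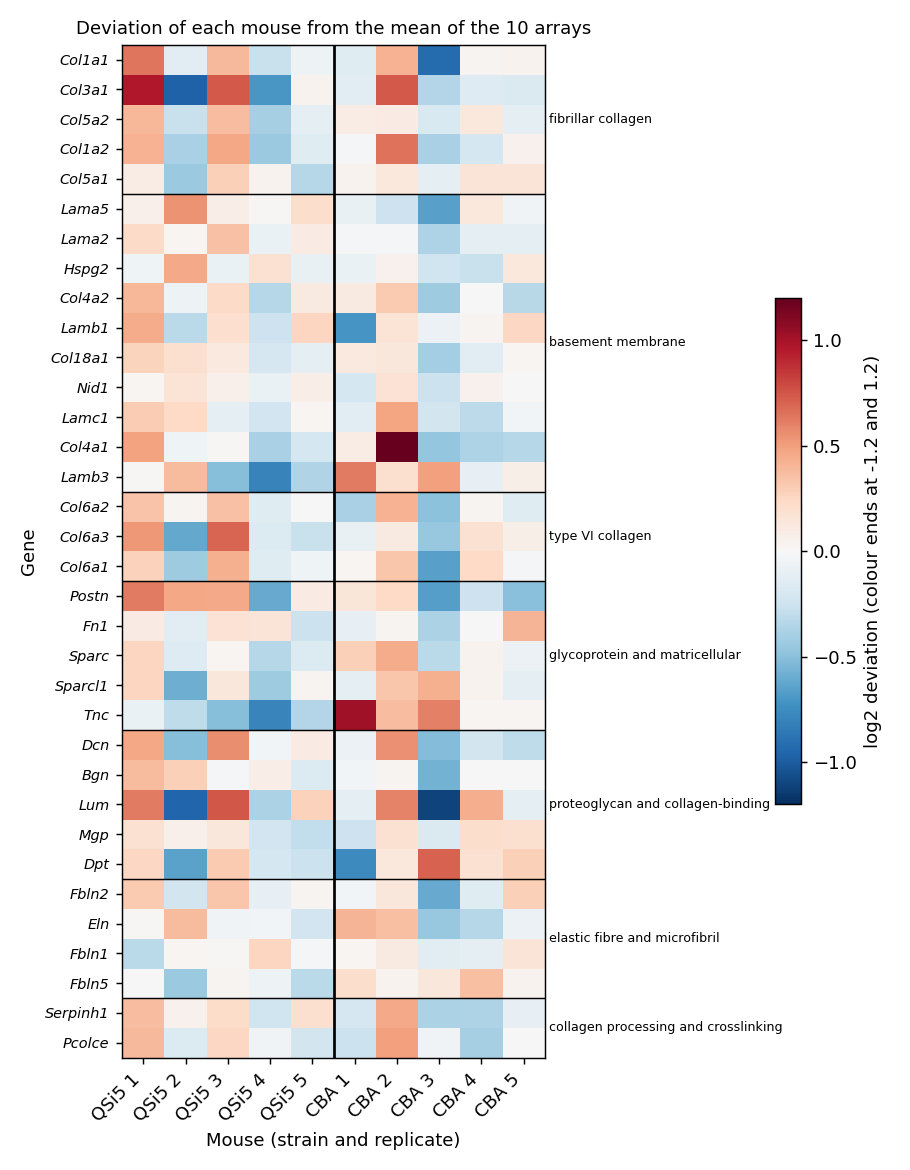
Deviation (log2) of each mouse from the 10-array mean for the 34 tested matrix genes, QSi5 mice left and CBA mice right of the line, genes grouped by role. Most genes are red in the QSi5 mice of replicates 1 and 3 and the CBA mouse of replicate 2, and blue in the QSi5 mouse of replicate 4 and the CBA mouse of replicate 3.

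Cell type markers did not all move with the matrix genes. Of 10 fibroblast markers 4 were tested, and their median deviation was 0.34, -0.21, -0.11, 0.45 and -0.27 in QSi5 mice and -0.28, 0.24, -0.35, -0.03 and -0.14 in CBA mice. They were thus high with the matrix genes in the QSi5 mouse of replicate 1 and the CBA mouse of replicate 2. In the CBA mouse of replicate 3 their median was low with the matrix genes, but Vim, at 6.75, was the highest of its strain. In the QSi5 mouse of replicate 3 the matrix median was 0.21 and that of the fibroblast markers -0.11. In the QSi5 mouse of replicate 4, where matrix genes were low, 2 of the 4 were high, Thy1 at 7.01 and Vim at 6.95, both of which leukocytes also express. The remaining pair was not: Pdgfrb read 4.86, against 4.73 to 4.90 in the other QSi5 mice, and Dpp4 4.66, within the range of the others. The median of the leukocyte markers, 7 tested of 11, was high in both mice with the lowest matrix medians. It was 0.37 in the QSi5 mouse of replicate 4 and 0.43 in the CBA mouse of replicate 3. The other QSi5 mice had -0.22 to 0.05 and the other CBA mice -0.34 to -0.13. Single markers differed between these mice. Ptprc, Cd52, Lyz2 and Csf1r were the highest of their strain in both. Cd3e was highest in the QSi5 mouse (7.16) but lowest in the CBA mouse (6.54). Adgre1 was highest in the CBA mouse (6.39) but not in the QSi5 mouse (5.96), and Cd14 was highest in neither. The intensity minimum left out Cd68, Cd3g, Cd79a and Cd79b. The last 3 read 5.11, 5.90 and 6.22 in the QSi5 mouse, the highest of its strain. In the CBA mouse they read 2.48, 3.31 and 3.63, the lowest of its strain. Cd68 was highest in neither. The other 6 fibroblast markers, Pdgfra, S100a4, Fap, Tcf21, Cd34 and Pi16, were below the intensity minimum. Adipocyte markers, 6 tested of 9, had 0.48 and 0.49 in the CBA mice of replicates 2 and 3, -0.28 to 0.01 in the other CBA mice and -0.26 to 0.06 in QSi5 mice. Fabp4, Retn and Lipe were higher in both of these than in the other CBA mice. Adipoq was highest in the CBA mouse of replicate 4 (8.05), and Pparg, at 4.75 and 4.61, lay within the range of the other CBA mice. Lep was the highest of the 10 in the CBA mouse of replicate 2 (5.03) and the lowest in that of replicate 3 (3.97). The myoepithelial markers, 7 tested of 10, had 0.01, 0.54, 0.07, -0.79 and -0.02 in QSi5 mice and 0.59, 0.48, -0.17, -0.23 and -0.35 in CBA mice. They were low with the matrix genes in the QSi5 mouse of replicate 4 and high with them in the CBA mouse of replicate 2. In the QSi5 mouse of replicate 2 and the CBA mouse of replicate 1 they were high, where the matrix medians were -0.13 and -0.05. Endothelial markers, 5 tested of 10, lay between -0.26 and 0.07 in QSi5 mice and between -0.01 and 0.33 in CBA mice. The median of the secretory epithelial markers, most of which are very bright milk genes, stayed within -0.04 to 0.06. Of the 10, Krt8, a keratin of luminal cells, was called lower in QSi5 mice and 9 were not called. Krt8 read 7.99 to 8.24 in QSi5 mice, against 8.48 to 9.47 in CBA mice (difference -0.83, limma adjusted p = 0.0161). Among those not called, the keratin gene Krt18 gave 0.08, Epcam -0.21 and Elf5 -0.11 (limma adjusted p of 0.662 or more). The Gapdh 3′ to 5′ difference was 2.28 in the CBA mouse of replicate 2 and 3.28 in that of replicate 3, of which matrix genes were high in the first and low in the second. The part of cell makeup and of RNA quality in the spread of matrix genes was not tested.

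**Figure D5:**
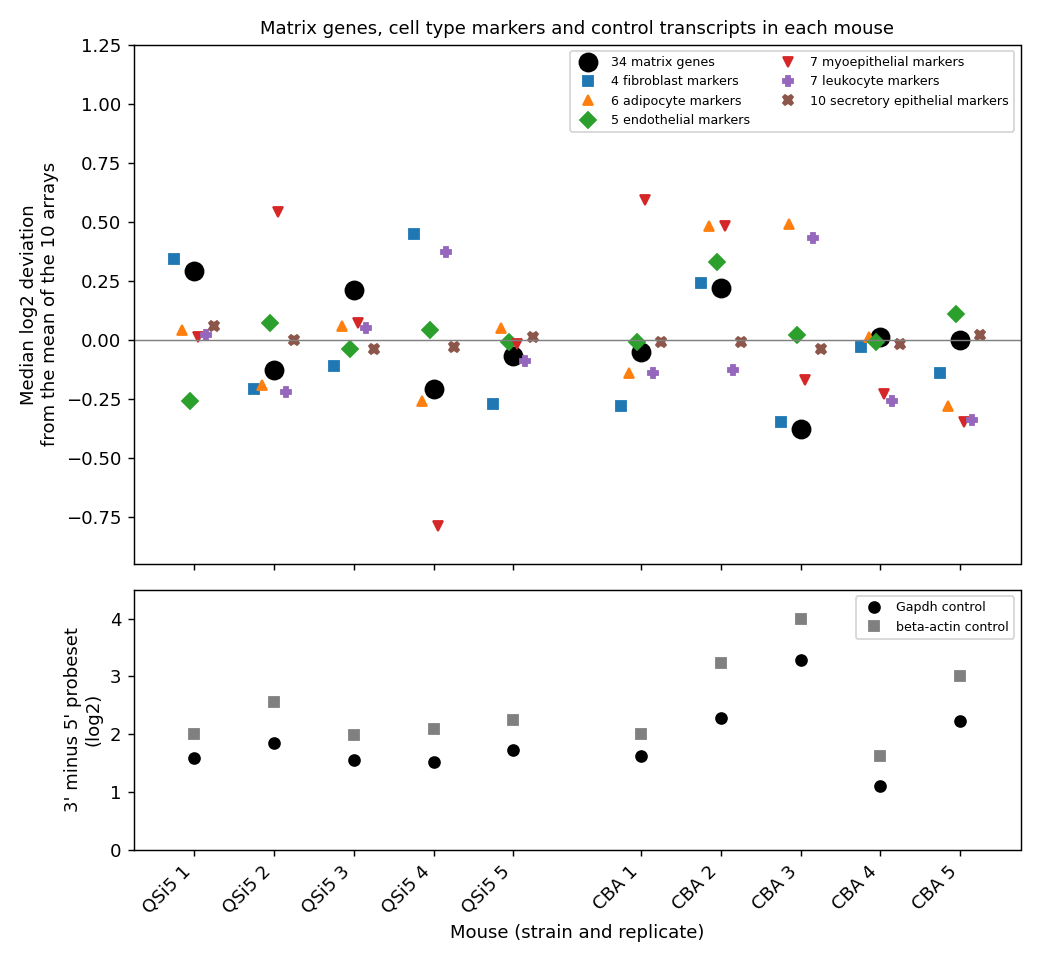
Upper panel, median deviation (log2) from the 10-array mean of the 34 matrix genes and of 6 lists of cell type markers in each QSi5 and CBA mouse, with symbols set side by side within a mouse. Lower panel, 3′ minus 5′ probeset (log2) of the Gapdh and beta-actin controls, highest in the CBA mouse of replicate 3 at 3.28 and 4.0, where matrix genes are lowest at -0.38.

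Other matrix genes were read from 6 further lists of collagens, laminins, microfibril and matricellular genes, collagen-modifying enzymes, proteases with their inhibitors, and receptors. They held 164 genes, of which 130 had a probeset and 59 were tested. Of these 0 were called higher in QSi5 mice, 2 were called lower and 57 were not called, beside 1.32% of all genes called higher and 1.39% called lower. P4ha2, a prolyl 4-hydroxylase subunit that modifies nascent collagen chains, read 5.0, 4.64, 4.85, 4.57 and 5.05 in QSi5 mice, against 5.98, 5.80, 5.31, 5.99 and 6.11 in CBA mice. Every QSi5 mouse lay below every CBA mouse, and the level fell by 1.02 on the log2 scale (SE 0.16, 2.02-fold; adjusted p = 0.00326 in limma). Timp1, an inhibitor of matrix metalloproteinases, read 5.88, 5.91, 5.84, 5.90 and 5.76 in QSi5 mice, against 6.89, 6.47, 6.47, 6.38 and 6.21 in CBA mice. Its QSi5 mice lay close together and all below the CBA mice, and the level fell by 0.63 on the log2 scale (SE 0.12; adjusted p = 0.0143 in limma).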

How the data were processed

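Total RNA of 10 mammary glands was hybridised by the authors to 1 array per mouse. The deposited values are log2 levels that the authors made with RMA in the affy package, which corrects background, quantile normalizes and summarises the probes of a probeset. Per the labels, normalization was joint over the 2 chip types and their 22690 shared probesets, while the methods name MOE430A 2.0 alone. Versions are not given in the sources used here. Strains were read from the sample titles, and 0 columns of another series were found.

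After 64 controls were removed, 11412 probesets were kept, those with a strain mean of the log2 values above the log2 of 20. They entered a linear model per probeset with moderated variances (lmFit and eBayes of limma 3.58.1, R 4.3.3). Tests were two-sided on QSi5 minus CBA, with adjustment over all probesets fitted. Of the 22626 probesets other than controls, 20380 had 1 symbol, 691 several, and 1555 are unnamed here. The gene's brightest tested probeset stood for it. The members and lists were chosen with earlier results of these data known. Every array's value is given for members with an unadjusted p under 0.01 and for those with the largest and smallest difference of each role. Lama5, Lama2, Col3a1, Lum, Dpt, Postn and Thbs1 were added after their values were seen. The script was tested on simulated data. Alternatives changed the intensity minimum, scaling, chip type, replicate block, trend, weights and probesets, or left out a mouse. Samples are separate mice, and the number of arrays limits the precision.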

Additional observations from a re-analysis of the deposited data

Results flagged for a closer look

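In 8 of 126 groups of 5 mice, made within each strain of each tested matrix probeset and of each probeset of the 8 genes that were never tested, the highest or lowest mouse stood apart from the others by Dixon's criterion, which chance alone passes in about 1 of 20 groups.

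Of the 8, 4 were low values in the CBA mouse of replicate 3. Lama2 read 4.71 there (4.97 to 5.07 in the other CBA mice) and Lama4 on probeset 1424807_at read 3.80 (4.19 to 4.25), below the intensity minimum in both strains. Bgn read 6.04 on 1437889_x_at (6.26 to 6.28) and 6.22 on 1448323_a_at (6.75 to 6.82). Its remaining probeset, 1416405_at, read 6.12 in that mouse and 6.10 to 6.61 in the other CBA mice.

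A high value of Col3a1, 9.84, was found in the CBA mouse of replicate 2 (8.76 to 8.97 in the others). Thbs1 on 1460302_at read 5.37 in the CBA mouse of replicate 1 (2.71 to 3.28 in the others). In QSi5 mice, Vcan on 1427257_at read 3.02 in replicate 2 (2.62 to 2.67 in the others), a level below the intensity minimum. Pcolce on its dimmer probeset 1448433_a_at read 4.76 in replicate 4 (4.13 to 4.31 in the others), while on its brightest probeset that mouse read 5.95, within the range of its strain.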

How the results depend on the processing

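Of 855 values of 38 genes under the alternatives, 774 kept direction and side of the threshold, 15 lost the call, 7 passed where the main value had not, and 59 changed sign. The sign changed in 18 genes, none of them called (0), and no value that changed sign exceeded 0.24 in size. The cause of a change was not tested, and settings with a single chip type or a mouse left out also had fewer arrays.

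All probesets gave 336 calls, 149 with MOE430 2.0 alone, 64 with MOE430A 2.0 alone, and 220 to 414 when single mice were left out. Of the 34 matrix genes 1, Tnc, was called, and 0 were with no intensity minimum (adjusted p = 0.0709), median centring (0.0632), an intensity trend (0.0515) or either chip type alone (0.239 and 0.316), all by limma. Leaving out single mice gave 0 to 1. The call was lost without QSi5 replicates 2, 3, 4 or 5 (adjusted p 0.0787, 0.128, 0.112 and 0.102) and without CBA replicates 1, 2 or 3 (0.0778, 0.0971 and 0.0999). P4ha2 kept its call in 22 of 23 alternatives and Timp1 in 21 of 23, the exceptions being a single chip type (P4ha2 0.354 on MOE430A 2.0, Timp1 0.19 on MOE430 2.0 and 0.342 on MOE430A 2.0). Replicate numbers did not pair the mice: same-numbered mice had correlated deviations of -0.25, 0.29, -0.37, 0.06 and 0.02, and a replicate block gave 260 calls over all probesets and kept Tnc as the 1 matrix call (adjusted p = 0.0252).

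With MOE430 2.0 alone, the differences that changed sign were Bgn -0.03, Col18a1 -0.07, Col1a2 0.02, Col4a1 0.01, Col6a1 0.00, Dpt 0.05, Eln -0.10, Fbln1 0.07 and Fn1 -0.09. With MOE430A 2.0 alone, they were Col3a1 -0.20, Col5a2 0.11, Dcn -0.04, Mgp 0.12 and Pcolce -0.11, and with array weights Col5a2 0.04, Eln -0.08 and Fn1 -0.06. On the mean of a gene's tested probesets, an alternative extended to single genes after seeing the data, Nid1 gave -0.17. Leaving out single mice moved these across 0: Col3a1 -0.21 to 0.28, Col6a1 -0.12 to 0.14, Col6a3 -0.09 to 0.23, Fbln1 -0.08 to 0.06, Fn1 -0.08 to 0.12, Lum -0.14 to 0.38, Pcolce -0.01 to 0.22, Col1a2 -0.16 to 0.12, Col5a2 -0.11 to 0.09, Eln -0.07 to 0.14, Col4a1 -0.19 to 0.24, Mgp -0.13 to 0.00 and Lamb1 -0.03 to 0.23.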

Other observations

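A pair of matrix genes outside the 43 had strain differences that missed the adjusted threshold while their unadjusted p lay under 0.01, as it did for 6.33% of all genes. They were picked out after their values were seen. Ccn2, a matricellular growth factor also called connective tissue growth factor, read 2.44, 3.50, 2.57, 2.89 and 2.72 in QSi5 mice, against 5.17, 5.59, 5.01, 3.07 and 3.64 in CBA mice. The CBA mice of replicates 1 to 3 stood well above all QSi5 mice, and the CBA mouse of replicate 4 lay within the QSi5 range. Ccn2 passed the intensity minimum through the CBA mean alone, since the QSi5 mean was 2.82, so that the size of its difference is not given.

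Lama1, a laminin alpha chain, read 6.09, 5.76, 5.99, 5.56 and 6.10 in QSi5 mice, against 5.34, 5.20, 4.90, 5.49 and 5.63 in CBA mice. The ranges overlapped only between the lowest QSi5 mouse and the highest CBA mouse, and the difference was 0.59 ± 0.15 (SE; adjusted p = 0.0686 in limma, 0.0376 to 0.449 over 23 alternatives). It was 0.40 on MOE430 2.0 and 0.88 on MOE430A 2.0.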
